A study of Mus musculus with 6 samples.

Results

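Transcripts of the mitochondrial genome were taken as every row of the deposited gene table whose gene name starts with mt-, in lower case and with the hyphen, which gave 37 of 28154 genes. They comprised 13 messenger RNAs, 2 ribosomal RNAs and 22 transfer RNAs. The series measured RNA from 4T1, a mouse mammary carcinoma cell line, in 6 libraries. Of these, 3 were labelled control and 3 were labelled as treated with corticosterone, the main glucocorticoid of rodents. Both groups are the same line, with no genotype, transgene or other agent named in the labels. Dose, treatment time and any vehicle given to controls are not stated in what was used here. Whether the replicates are separate cultures is not labelled, and p-values therefore reflect the spread among these samples alone, which may be technical.

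The mitochondrial genome is a small circle that encodes a few subunits of the respiratory chain, the 2 ribosomal RNAs of the mitochondrial ribosome and the transfer RNAs that read its code. Both strands are transcribed into long precursors, in which transfer RNAs lie between the messengers and ribosomal RNAs and are cut out to release them. Most of the messengers then receive short poly(A) tails. All proteins that transcribe, cut, stabilise and translate these RNAs come from nuclear genes.

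No mitochondrial transcript passed the test between corticosterone-treated and control libraries, and the classes stood differently. All 13 messengers were lower with corticosterone, with a median log2 fold change of -0.21. Both ribosomal RNAs were near 0 (0.00 and 0.03). Among the transfer RNAs, mt-Tr, mt-Th, mt-Ts2 and mt-Tl2, which carry arginine, histidine, serine and leucine, were higher by 1.41 to 1.64 on the log2 scale, with adjusted p between 0.0727 and 0.0912 (edgeR quasi-likelihood test, Benjamini-Hochberg adjustment over all 17283 tested genes). At an adjusted p under 0.05, 0 of 34 tested mitochondrial transcripts were called, against 2.82% of all tested genes (1.46% lower, 1.35% higher). At an unadjusted p under 0.05 there were 11 lower and 4 higher, against 8.8% and 8.23% of all tested genes. DESeq2 called 7, of which 3 were lower and 4 higher, against 8.1% of the genes it tested (4.06% lower, 4.04% higher). Limma on log2(FPKM + 1) called 0, against 4.26%.

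The libraries held 62175495 to 66249288 counts. Summed levels of 4 glucocorticoid targets (Per1, Tsc22d3, Sgk1 and Fkbp5) were 216 to 229 CPM (counts scaled to library depth) in controls and 449 to 488 CPM with corticosterone. Summed levels of 7 epithelial markers were 4023 to 4230 CPM in controls and 3709 to 4433 CPM with corticosterone. Those of 4 leukocyte markers were 190 to 208 and 183 to 263 CPM, those of 4 fibroblast markers 134 to 146 and 138 to 144 CPM, and those of 3 endothelial markers 1.29 to 1.85 and 0.658 to 0.843 CPM. Among these, the T cell marker Cd3e had 0 to 10 counts and the endothelial markers Cdh5 and Kdr 0 to 18 and 0 to 14. The part of other cell types in the results was not tested. Corticosterone replicate 2 stood apart: it differed from the other treated libraries by a chi-square per degree of freedom of 45.9 and 70.6, whereas other pairs of replicates differed by 9.02 to 15.7. Results that turn on it are therefore also given without that library, a fit in which 20.5% of all tested genes were called and 17 of the 34 transcripts. Without control replicate 1, 2 or 3 or corticosterone replicate 3, 0 of them were called, against 0.928%, 0.493%, 0.895% and 1.34% of all tested genes.

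As a share of all counts, the messengers took 3.84%, 3.82% and 3.92% in control replicates 1, 2 and 3. They took 3.42%, 3.71% and 3.21% in corticosterone replicates 1, 2 and 3. Every treated library was thus below every control, and the highest treated one was corticosterone replicate 2. The mean went from 3.86 ± 0.0521% to 3.45 ± 0.250% (SD, n = 3), a difference of -0.41 percentage points (two-sided exact permutation over libraries, p = 0.1, the smallest that 3 against 3 allows, and 0.2 adjusted by Benjamini-Hochberg over 6 library measures). The difference was -0.54 percentage points without corticosterone replicate 2. Exact 95% binomial intervals, which cover counting error only, were at most ± 0.00473 percentage points wide for these shares. Summed epithelial markers ordered the treated libraries in the same way (3752, 4433 and 3709 CPM in corticosterone replicates 1, 2 and 3), and their part in this result was not tested. In bulk RNA, fewer transcripts per cell and a changed mix of cells cannot be told apart.

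Ribosomal RNAs took 0.0822%, 0.0852% and 0.0806% of counts in controls and 0.0874%, 0.0841% and 0.0813% with corticosterone. These ranges overlapped, and the means were 0.0827 ± 0.00231% and 0.0843 ± 0.00304% (SD, n = 3; two-sided exact permutation, p = 0.6). Transfer RNAs took 0.0108%, 0.0106% and 0.0102% in controls and 0.00989%, 0.0109% and 0.0101% with corticosterone, which also overlapped (two-sided exact permutation, p = 0.6). Unlike the messengers, neither class was separated between the groups.

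**Figure D1:**
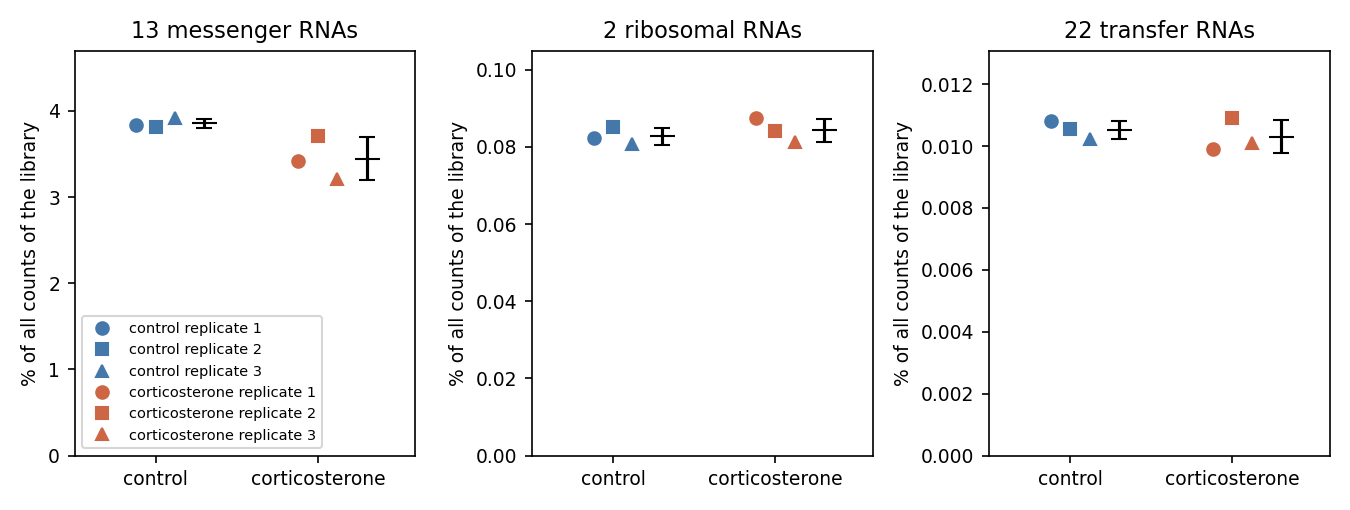
Share of all counts of each library (vertical axes, %, each starting at 0) taken by the mitochondrial messenger, ribosomal and transfer RNAs. Each symbol is 1 library, and the black marks are group means with SD (n = 3). The treated libraries lie between 3.21% and 3.71% for messengers, below all controls, while the groups overlap for ribosomal and transfer RNAs.

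Ratios within the mitochondrial transcripts do not depend on how nuclear counts are scaled. Ribosomal RNA counts were 2.14%, 2.23% and 2.06% of messenger counts in controls. With corticosterone they were 2.55%, 2.27% and 2.53%, so that all treated libraries lay above all controls, corticosterone replicate 2 only just. The difference on the log2 scale was 0.19 (two-sided exact permutation, p = 0.1, the smallest possible, and 0.2 adjusted). Transfer RNA counts were 0.282%, 0.277% and 0.261% of messenger counts in controls and 0.289%, 0.294% and 0.315% with corticosterone, again without overlap. The difference on the log2 scale was 0.13 (two-sided exact permutation, p = 0.1, the smallest possible, and 0.2 adjusted). In this ratio it was corticosterone replicate 3 that was highest. It includes mt-Tg, mt-Tr, mt-Th, mt-Ts2 and mt-Tl2, which are described below and were chosen after their values were seen. These 5 held 4.86%, 4.14% and 3.43% of transfer RNA counts in controls and 6.18%, 16.1% and 13.5% with corticosterone. Whether the groups are also apart without them was not tested.

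Complex I, the NADH dehydrogenase through which electrons enter the chain, has 7 of the 13 messengers. Per kilobase, mt-Nd1 had the highest control level of the 7, 4006 ± 178 in fragments per kilobase scaled to depth (FPKM, SD, n = 3), and mt-Nd3 the lowest, 462 ± 18.1 FPKM. The member with the lowest p was mt-Nd4l (chrM:9877-10173, plus strand). Its levels were 342, 330 and 343 CPM in controls and 297, 302 and 303 CPM with corticosterone. The groups did not overlap, and corticosterone replicate 2 lay with the other treated libraries. The log2 fold change was -0.17 (SE 0.047, adjusted p = 0.11), and -0.18 without corticosterone replicate 2 (adjusted p = 0.0136).

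For mt-Nd5 (chrM:11742-13565, plus strand), levels were 2413, 2378 and 2474 CPM in controls and 2092, 2264 and 2027 CPM with corticosterone. Here too the groups were apart, by a log2 fold change of -0.19 (SE 0.053, adjusted p = 0.122). The other complex I messengers overlapped between groups through corticosterone replicate 2. Thus mt-Nd1 was at 4177, 4257 and 4578 CPM in controls and at 3600, 4281 and 3240 CPM with corticosterone (log2 fold change -0.23), and mt-Nd4 at 2729, 2761 and 2908 CPM and at 2231, 2812 and 2108 CPM (-0.23). In both, the second treated library reached the controls while the other two stayed below them. The log2 fold changes of mt-Nd2 and mt-Nd3 were -0.21 and -0.12. Once corticosterone replicate 2 was left out, mt-Nd1, mt-Nd2, mt-Nd3 and mt-Nd4 fell, with log2 fold changes of -0.34, -0.31, -0.24 and -0.37 (adjusted p of 0.00381, 0.00438, 0.00893 and 0.000922).

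The one messenger encoded on the minus strand, mt-Nd6 (chrM:13552-14070), was at 528, 522 and 597 CPM in controls and at 418, 555 and 385 CPM with corticosterone. Its fitted log2 fold change of -0.28 (SE 0.128, adjusted p = 0.321) was the lowest of the 13 messengers, and it was -0.45 without corticosterone replicate 2 (adjusted p = 0.00252). Relative to the 12 messengers of the plus strand its counts were 1.40%, 1.38% and 1.53% in controls and 1.25%, 1.50% and 1.23% with corticosterone. This ratio overlapped between the groups (two-sided exact permutation, p = 0.3), and the low values were again those of corticosterone replicates 1 and 3. The difference on the log2 scale was -0.12, and without corticosterone replicate 2 it was -0.21 and the groups did not overlap (two-sided exact permutation, p = 0.1, the smallest possible). The strandedness of the counting is not stated in the labels or headers. Counts of mt-Nd5 and mt-Nd6 are therefore uncertain at their 14 shared bases on opposite strands. Because both strands are transcribed into long precursors, the rest of mt-Nd6 and the minus-strand transfer RNAs may also hold reads of plus-strand RNA. The ratio of mt-Nd6 to the plus-strand messengers is uncertain in the same way, and this was not tested.

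Complex III, the cytochrome bc1 complex, has 1 mitochondrial subunit, cytochrome b. Its messenger mt-Cytb (chrM:14145-15288, plus strand) was at 4885, 4807 and 5055 CPM in controls and at 4137, 4746 and 3844 CPM with corticosterone. All treated libraries were below the controls, the second by little. The log2 fold change was -0.21 (SE 0.074, adjusted p = 0.196), and -0.30 without corticosterone replicate 2 (adjusted p = 0.00208).

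Complex IV, cytochrome c oxidase, reduces oxygen with 3 core subunits encoded here. The messenger of the catalytic subunit, mt-Co1 (chrM:5328-6872, plus strand), had the highest FPKM of all genes in the table, 6431 ± 133 in controls and 6091 ± 175 with corticosterone (SD, n = 3). Its levels were 11473, 11076 and 11175 CPM in controls and 10874, 10593 and 10342 CPM with corticosterone. The groups did not overlap, yet the log2 fold change of -0.08 (SE 0.038, adjusted p = 0.311) was the smallest among the messengers, and it was the one messenger not called without corticosterone replicate 2 (-0.08, adjusted p = 0.116). As a share of mitochondrial messenger counts, mt-Co1 took 30.0%, 29.0% and 28.3% in controls and 32.1%, 28.1% and 32.6% with corticosterone. It was high in corticosterone replicates 1 and 3, while corticosterone replicate 2 lay just below the controls. The log2 fold changes of mt-Co2 and mt-Co3 were -0.18 and -0.15, and for both of them corticosterone replicate 2 lay within the range of the controls. Without that library both fell (-0.27 and -0.22).

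Complex V, the ATP synthase, has its proton channel subunit a and a small partner subunit encoded by mt-Atp6 and mt-Atp8. These messengers share 43 bases, the end of one being the start of the other in another reading frame, so some of their reads cannot be assigned to one alone. The end of mt-Atp8 is shown, from the GENCODE M21 transcript (GRCm38), with the bases that are also the start of mt-Atp6 in capitals, beginning with its ATG.
mt-Atp8 end, chrM:7907-7969, plus strand: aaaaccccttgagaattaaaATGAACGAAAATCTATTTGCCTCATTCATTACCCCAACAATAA
Levels of mt-Atp8 were 920, 950 and 969 CPM in controls and 815, 881 and 765 CPM with corticosterone. Those of mt-Atp6 were 3396, 3503 and 3643 CPM in controls and 2826, 3664 and 2607 CPM with corticosterone. Treated libraries were all below the controls for mt-Atp8 (log2 fold change -0.21, SE 0.061, adjusted p = 0.137), whereas for mt-Atp6 (-0.21, SE 0.113, adjusted p = 0.388) corticosterone replicate 2 was the highest of the 6 libraries. Without that library both fell, mt-Atp8 with a log2 fold change of -0.26 and mt-Atp6 with one of -0.37 (adjusted p of 0.00414 and 0.00124). The difference between the pair was not tested.

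Over the 13 messengers, 5 did not overlap between the groups, all lower: mt-Co1, mt-Atp8, mt-Nd4l, mt-Nd5 and mt-Cytb. Of all tested genes 11.6% were lower without overlap. At an unadjusted p under 0.05, 8 of the 13 were lower, against 8.8% of all tested genes. Without corticosterone replicate 2, 12 of the 13 fell, against 10% of all tested genes called lower in that fit, with a median log2 fold change of -0.27. The messengers move together within a library and are not independent of each other. Relative to the control mean, their median was -0.22, -0.02 and -0.32 on the log2 scale in corticosterone replicates 1, 2 and 3. In corticosterone replicates 1 and 3, all 13 were below the lowest control. In corticosterone replicate 2, 5 were below the lowest control and 2 above the highest.

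**Figure D2:**
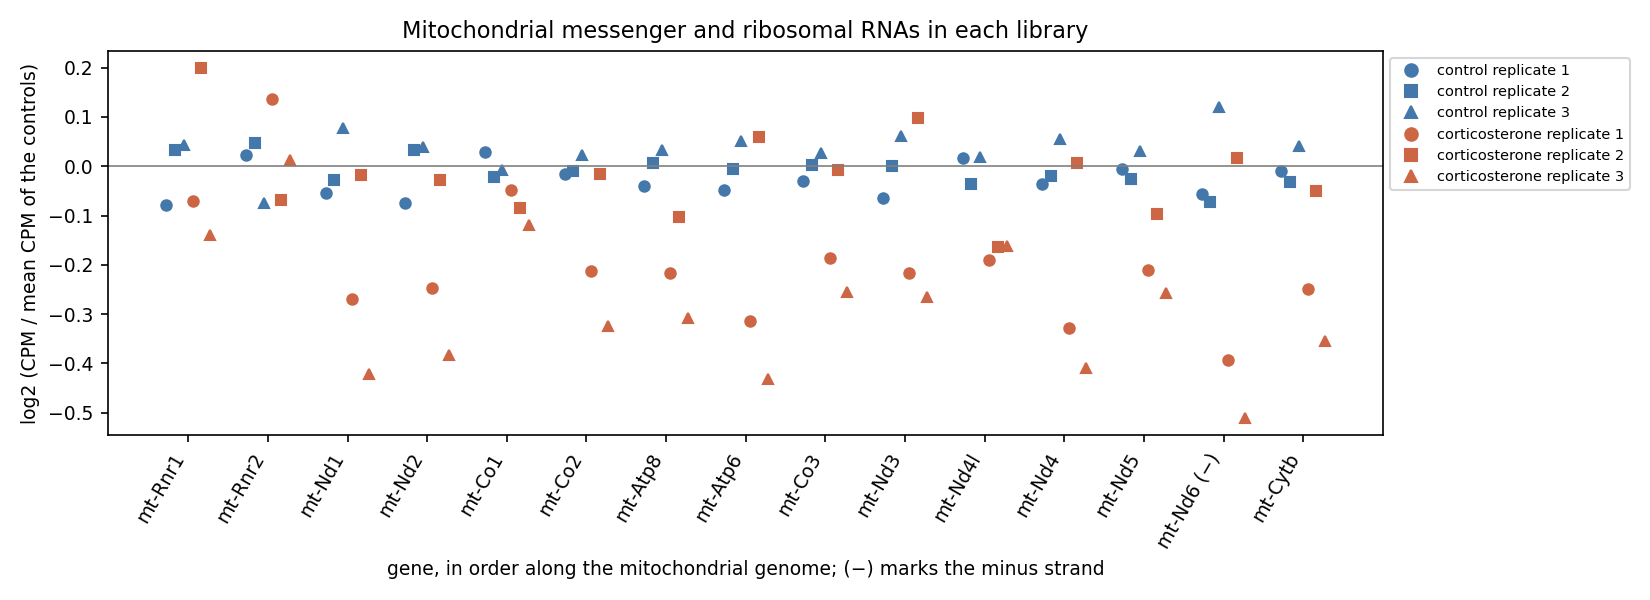
Level of each messenger and ribosomal RNA in each library, as log2 of its CPM over the mean CPM of the controls (vertical axis), in the order of the genes along the mitochondrial genome (horizontal axis, minus-strand gene marked). Symbols are single libraries. For the messengers, the corticosterone replicate 1 and 3 symbols lie below those of all controls, and corticosterone replicate 2 lies near 0 for most of them.

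The ribosomal RNAs differed in which libraries were high. The small subunit RNA mt-Rnr1 (chrM:70-1024, plus strand) was at 308, 332 and 335 CPM in controls and at 310, 373 and 295 CPM with corticosterone. The large subunit RNA mt-Rnr2 (chrM:1094-2675, plus strand) was at 513, 522 and 479 CPM in controls and at 555, 481 and 509 CPM with corticosterone. Corticosterone replicate 2 had the highest level of mt-Rnr1 and one of the lowest of mt-Rnr2. Neither RNA passed in edgeR (log2 fold change 0.00, SE 0.089, and 0.03, SE 0.066), nor without corticosterone replicate 2 (-0.11 and 0.08). Mature mitochondrial ribosomal RNAs carry hardly any poly(A) tail, and the selection used for these libraries is not stated in the labels or headers. Per kilobase their control levels were 301 ± 13 and 282 ± 13.6 FPKM (SD, n = 3), below all 13 messengers. Summed levels of 7 rows of nuclear RNAs without a poly(A) tail, such as Rn7sk, were 3.35 to 4.93 CPM in controls and 2.28 to 3.46 CPM with corticosterone. Those of 9 histone genes, whose messengers mostly lack a tail, were 2.68 to 2.82 CPM in controls and 2.15 to 2.40 CPM with corticosterone, without overlap. Most of these counts were of Hist1h2br (33 to 59 per library) and Hist1h2bq (37 to 66), and neither passed in edgeR (adjusted p of 0.312 and 0.491). The other histone rows had 21 counts at most in any library, and not all of them were lower with corticosterone. The part of library make-up in these results was not tested.

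Of the 22 transfer RNAs, 19 passed the low-count filter. The genes are 59 to 75 bases long, 14 of them on the plus and 8 on the minus strand. For every library the labels name both a column kit and TRIzol, which can differ in how well they keep RNAs this short, and the part of extraction in these levels was not tested. The 3 that did not pass had 35 counts at most in any library: mt-Tv (5, 7 and 4 counts in controls, 3, 1 and 5 with corticosterone), mt-Td (6, 9 and 4, then 8, 18 and 9) and mt-Tg (7, 9 and 7, then 9, 35 and 22). Among the 19, 6 were below and 13 above 0, with a median log2 fold change of 0.11. In edgeR 0 passed. Unadjusted p-values under 0.05 were found for 3 lower and 4 higher ones, against 8.8% and 8.23% of all tested genes, and DESeq2 called 4, all higher, against 4.04%.

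The transfer RNAs with the 4 highest fold changes lie close together on the plus strand, with mt-Tg before them. These 5 were chosen after their values were seen. Their sequences are shown because they carry this pattern. Each is the GENCODE M21 transcript (GRCm38) read 5′ to 3′ as DNA, with the anticodon in capitals, found as the middle of a 7-base loop closed by a 5-base stem with at least 4 pairs.
mt-Tg (glycine), chrM:9391-9458, plus strand: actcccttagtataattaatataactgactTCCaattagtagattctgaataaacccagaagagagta
mt-Tr (arginine), chrM:9808-9875, plus strand: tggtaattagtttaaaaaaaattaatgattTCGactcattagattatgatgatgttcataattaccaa
mt-Th (histidine), chrM:11546-11612, plus strand: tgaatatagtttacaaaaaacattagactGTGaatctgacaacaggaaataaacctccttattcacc
mt-Ts2 (serine, AGY codons), chrM:11613-11671, plus strand: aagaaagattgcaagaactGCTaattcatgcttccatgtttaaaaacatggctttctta
mt-Tl2 (leucine, CUN codons), chrM:11671-11741, plus strand: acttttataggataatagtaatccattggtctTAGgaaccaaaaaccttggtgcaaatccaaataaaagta
The serine transfer RNA mt-Ts2 is the shortest of the 22, and in mammals it lacks the D arm that other transfer RNAs have. The last 3 form an unbroken run between mt-Nd4 and mt-Nd5, while mt-Tr lies between mt-Nd3 and mt-Nd4l and mt-Tg between mt-Co3 and mt-Nd3.

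Counts of mt-Th were 91, 81 and 73 in controls and 110, 335 and 245 in corticosterone replicates 1, 2 and 3. Those of mt-Tr were 73, 59 and 45 in controls and 77, 261 and 219 with corticosterone. Corticosterone replicates 2 and 3 were far above all controls, and corticosterone replicate 1 only slightly above the highest. The log2 fold change of mt-Th was 1.49 (SE 0.356, adjusted p = 0.0727) and that of mt-Tr 1.64 (SE 0.418, adjusted p = 0.0865).

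Next to mt-Th, counts of mt-Ts2 were 75, 61 and 51 in controls and 88, 253 and 181 with corticosterone (log2 fold change 1.47, SE 0.361, adjusted p = 0.077). Those of mt-Tl2 were 87, 76 and 55 in controls and 96, 276 and 212 with corticosterone (1.41, SE 0.365, adjusted p = 0.0912). The 6 libraries stood in the same order in these 4 transfer RNAs, with corticosterone replicate 2 highest and control replicate 3 lowest. Among all 19 tested transfer RNAs, 4 were higher without overlap between the groups, namely these, against 10.6% of all tested genes. At an adjusted p under 0.1, 4 of the 19 tested transfer RNAs were higher, against 2.46% of all tested genes.

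Together the 5 had 333, 286 and 231 counts in controls and 380, 1160 and 879 with corticosterone. Per 1000 counts of mt-Nd3, mt-Nd4l, mt-Nd4 and mt-Nd5, the messengers that follow mt-Tg on the same strand up to mt-Nd5, this was 0.927, 0.775 and 0.598 in controls and 1.27, 3.19 and 2.93 with corticosterone. Corticosterone replicates 2 and 3, which differed in the level of the messengers, were thus alike here and apart from corticosterone replicate 1. The other 17 transfer RNAs together stood at 103, 101 and 99.7 CPM in controls and at 91.8, 92.9 and 86.5 CPM with corticosterone. Most of this sum came from mt-Tl1, mt-Ts1 and mt-Te, with means of 38.6, 25.0 and 15.3 CPM in controls and 34.1, 20.4 and 12.7 CPM with corticosterone. The rest of the 17 did not fall as a group: log2 fold changes of the tested ones lay from -0.11 (mt-Tt) to 0.30 (mt-Tk). The 4 tested ones were called in DESeq2, with adjusted p between 0.00136 and 0.00476, and in edgeR without corticosterone replicate 1, a fit that called 0.431% of all tested genes higher. Without corticosterone replicate 2, mt-Tr, mt-Th and mt-Ts2 rose, with log2 fold changes of 1.32, 1.12 and 1.11, and mt-Tl2 did not pass (1.08, adjusted p = 0.0508). So 3 of 19 tested transfer RNAs rose, against 10.5% of all tested genes called higher in that fit.

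**Figure D3:**
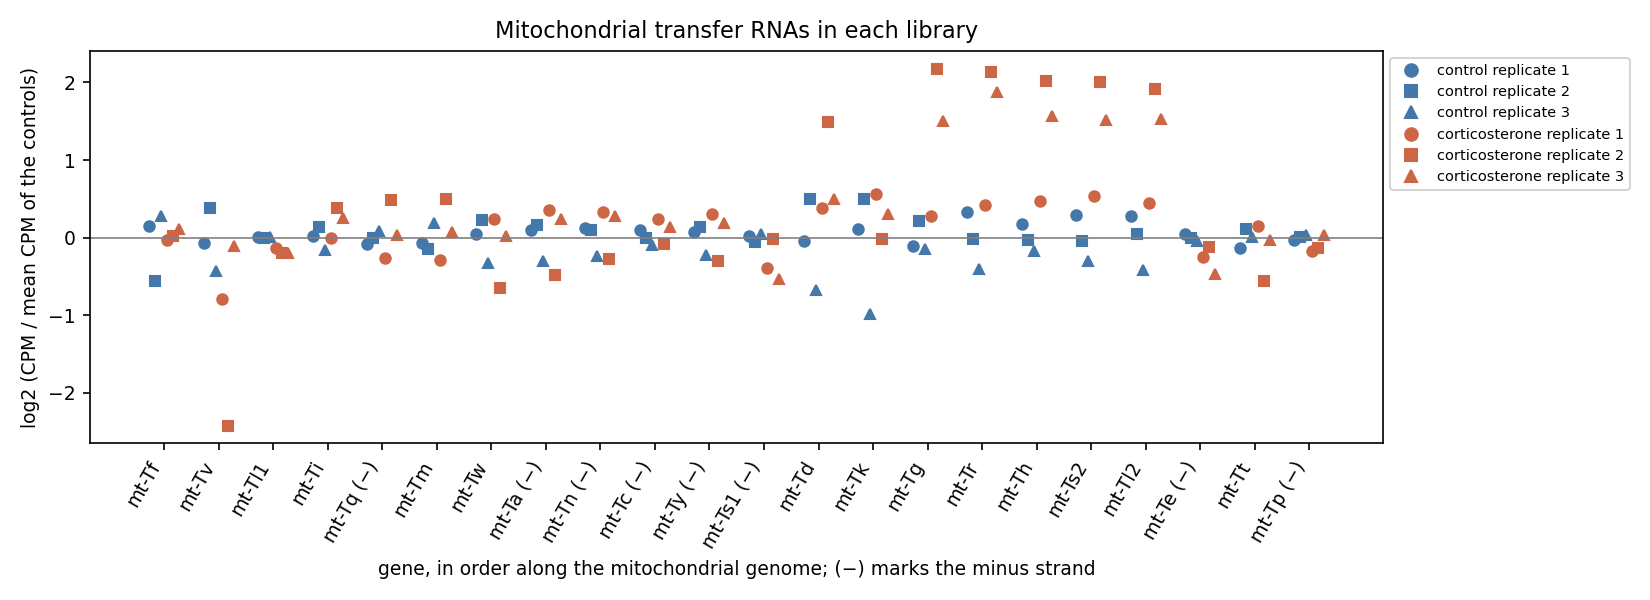
Level of each of the 22 transfer RNAs in each library, as log2 of its CPM over the mean CPM of the controls (vertical axis), in the order of the genes along the mitochondrial genome (horizontal axis, minus-strand genes marked). Symbols are single libraries. From mt-Tg to mt-Tl2, corticosterone replicates 2 and 3 lie far above the controls and corticosterone replicate 1 slightly above them, while mt-Tf, mt-Tv, mt-Td and mt-Tg rest on 35 counts or fewer in a library.

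The 3 most abundant transfer RNA rows were lower instead. The leucine transfer RNA mt-Tl1 (chrM:2676-2750, plus strand), between mt-Rnr2 and mt-Nd1, was at 38.7, 38.3 and 38.8 CPM in controls and at 35.0, 33.7 and 33.5 CPM with corticosterone. The groups did not overlap and each was narrow (log2 fold change -0.18, SE 0.061, adjusted p = 0.186). The glutamate transfer RNA mt-Te (chrM:14071-14139, minus strand), next to mt-Nd6, was at 15.8, 15.3 and 14.9 CPM in controls and at 12.9, 14.1 and 11.1 CPM with corticosterone (-0.27, SE 0.104, adjusted p = 0.238). The serine transfer RNA mt-Ts1 (chrM:6870-6938, minus strand), which overlaps the end of mt-Co1 on the opposite strand, was at 25.3, 24.0 and 25.7 CPM in controls and at 19.1, 24.7 and 17.3 CPM with corticosterone (-0.30, SE 0.128, adjusted p = 0.291). The last had the pattern of most messengers, with corticosterone replicate 2 among the controls. Without corticosterone replicate 2, mt-Ts1 and mt-Te fell (-0.46 and -0.36). These were 2 of 19 tested transfer RNAs, against 10% of all tested genes called lower in that fit.

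A run of 5 transfer RNAs between mt-Nd2 and mt-Co1 (mt-Tw, mt-Ta, mt-Tn, mt-Tc and mt-Ty, for tryptophan, alanine, asparagine, cysteine and tyrosine) surrounds the site where replication of the light strand starts. Together they stood at 13.7, 14.1 and 10.8 CPM in controls and at 15.8, 9.87 and 14.6 CPM with corticosterone. Control replicate 3 and corticosterone replicate 2 were the low ones, so the spread lay within the groups. Their log2 fold changes ranged from -0.09 (mt-Tw) to 0.13 (mt-Tn). The other tested transfer RNAs (mt-Tf, mt-Ti, mt-Tq, mt-Tm, mt-Tk, mt-Tt and mt-Tp) all overlapped between the groups. Their log2 fold changes lay between -0.11 (mt-Tt) and 0.30 (mt-Tk), with adjusted p from 0.722 for mt-Ti to 0.978 for mt-Tf. Counts of mt-Tf were low, 16, 10 and 18 in controls and 14, 15 and 16 with corticosterone.

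**Figure D4:**
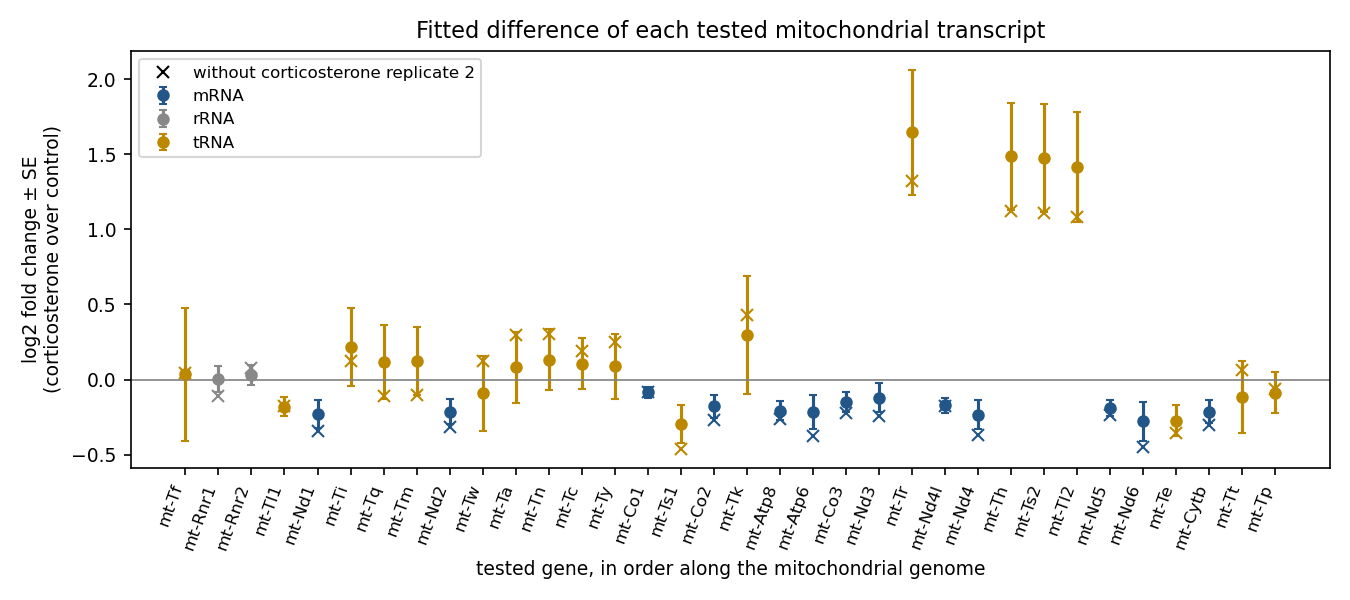
Fitted log2 fold change of corticosterone over control (vertical axis) for the 34 tested transcripts, in the order of the genes along the mitochondrial genome (horizontal axis). Points with bars are the estimates over 6 libraries with their SE, and crosses are the estimates without corticosterone replicate 2. The 13 messengers lie between -0.28 and -0.08, and mt-Tr, mt-Th, mt-Ts2 and mt-Tl2 between 1.41 and 1.64.

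Copies of mitochondrial DNA in nuclear chromosomes can take up the same reads. The table holds 7 unprocessed pseudogenes side by side on chromosome 1 (chr1:24611535-24616197, minus strand, GRCm38), which match mt-Co1, mt-Co2, mt-Atp6, mt-Co3, mt-Nd3, mt-Nd4l and mt-Nd4 at an identity of 99.7% or more over the aligned bases, 5 of them with 0 differing bases. They cover nearly all of their gene except in mt-Nd4 (63.6%) and mt-Co1 (31.3%). The copy of mt-Nd3, Gm28438, differs at 1 base, T3C (the mitochondrial base, the position from the first base of mt-Nd3, the base of the copy), which is chrM:9461. Both starts are shown, with that base in capitals, as an example of how little separates them.
mt-Nd3, bases 1 to 23: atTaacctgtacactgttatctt
Gm28438, same bases: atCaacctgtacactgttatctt
These pseudogenes held 1.14%, 1.15% and 1.17% of all counts in controls and 0.983%, 1.15% and 0.917% with corticosterone. The order of the libraries resembled that of the messengers, with corticosterone replicate 2 among the controls.

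The copy of mt-Nd4l, Gm10222, had a mean of 343 ± 9.22 CPM in controls and 306 ± 2.59 CPM with corticosterone (SD, n = 3), against 338 ± 7.41 and 300 ± 3.37 CPM for mt-Nd4l itself. Log2 fold changes of copy and gene were -0.20 and -0.23 for mt-Nd4, -0.21 and -0.21 for mt-Atp6 and -0.18 and -0.18 for mt-Co2. For mt-Co1 they were -0.22 for its partial copy Gm29216 and -0.08 for the gene, and the difference was not tested. Counts of the copies that cover nearly all of their gene were 97.4% to 108% of those of the gene in each library. The table does not record whether a read that matches both places was counted at one, at both or in part. The levels of these 7 messengers are therefore uncertain, and copy and gene are not independent measures. Between these genes lie mt-Ts1, mt-Td, mt-Tk, mt-Atp8, mt-Tg and mt-Tr. The 43 bases that mt-Atp8 shares with mt-Atp6 are matched by Gm10925, the mt-Atp6 copy, with 0 differing bases. The level of mt-Atp8 is thus uncertain too. Whether chromosome 1 also matches the rest of mt-Atp8 or these transfer RNAs was not tested. Adding each copy to its gene, or leaving the copies out, called 0 messengers, as did the fit with a replicate block, which called 1.37% of all tested genes. The 5 messengers outside the stretch (mt-Nd1, mt-Nd2, mt-Nd5, mt-Nd6 and mt-Cytb) by themselves had a lower share of counts with corticosterone, by -0.20 percentage points (two-sided exact permutation, p = 0.1, the smallest possible). In other chromosomes 6 more matches of at least 100 bases were found, each with 720 counts or fewer in any library.

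The proteins that make, cut and translate these transcripts are encoded in the nucleus. The list called RNA machinery held 67 tested genes for mitochondrial transcription, RNA processing, RNA stability and translation factors. It also held genes for replication of mitochondrial DNA, such as Polg, and regulators of nuclear genes for mitochondria, such as Nrf1. Of the 67, 0 changed, against 2.82% of all tested genes. Above 0 were 45 and below 0 were 22, against 50% of all tested genes below 0. Their median log2 fold change was 0.05 (0.03 without corticosterone replicate 2), beside a median of 0.00 over all tested genes. At an unadjusted p under 0.05 there were 9, against 17% of all tested genes. The lowest p belonged to Trnt1, which adds the CCA end to transfer RNAs (62.4 ± 2.85 CPM in controls, 71.3 ± 3.04 with corticosterone, SD, n = 3, log2 fold change 0.19), Mtif3, a factor that starts translation (-0.26), Pprc1, a coactivator of mitochondrial genes (0.14), Trmt10c, a subunit of the mitochondrial RNase P that cuts the front of transfer RNAs (0.20), and Mtpap, the mitochondrial poly(A) polymerase (0.16). None of these 5 passed (adjusted p of 0.166 to 0.257). Without corticosterone replicate 2, 6 members rose and 6 fell, against 10.5% and 10% of all tested genes, among them Trnt1 (0.21), Trmt10c (0.23) and Mtif3 (-0.31).

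Of 78 nuclear genes for proteins of the mitochondrial ribosome, 0 changed, against 2.82% of all tested genes. At an unadjusted p under 0.05 there were 9, against 17% of all tested genes, and DESeq2 called 3, against 8.1%. Below 0 were 57, against 50% of all tested genes, and the median log2 fold change was -0.08. Lowest p were those of Mrpl49 (-0.25), Mrps6 (-0.42), Mrpl18 (-0.27), Mrpl48 (-0.31) and Mrpl11 (-0.22), with adjusted p from 0.0764 to 0.171. Without corticosterone replicate 2, 18 fell and 0 rose, against 10% and 10.5% of all tested genes, and the median was -0.17.

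The nuclear subunits that join the mitochondrial ones in the respiratory chain were mostly below 0 as well. Of 79 tested subunits, 76 were below 0, against 50% of all tested genes, with a median log2 fold change of -0.16. Of the 79, 1 fell (1.27%), against 1.46% of all tested genes called lower. It was Cox7a2 of complex IV, from 68.1 ± 3.50 to 52.1 ± 2.98 CPM (SD, n = 3, log2 fold change -0.39, SE 0.068, adjusted p = 0.0237). This call was not made by 5 of the 6 fits with 1 library left out. Among those fits, the ones without control replicate 1, 2 or 3 or corticosterone replicate 3 called 0.928%, 0.493%, 0.895% and 1.34% of all tested genes. Medians were -0.16 for 37 subunits of complex I, -0.13 for 4 of complex II, which has no mitochondrial subunit, -0.09 for 9 of complex III, -0.18 for 12 of complex IV and -0.17 for 17 of complex V. With corticosterone replicate 2 left out they were -0.27, -0.21, -0.19, -0.33 and -0.29 in the same order, and -0.27 over all subunits. Subunits were grouped by gene name, which puts Ndufa4 (-0.26) with complex I although its protein is a subunit of complex IV. Below Cox7a2 in order of p came Uqcrh (-0.35), Atp5g3 (-0.28), Ndufc1 (-0.29) and Cox7b (-0.26), none of which passed. Without corticosterone replicate 2, 55 of the 79 fell, against 10% of all tested genes. Because strandedness is not given, counts of Trnt1, Mtif3, Pprc1, Mtpap, Mrpl18, Mrpl48, Mrpl49 and Uqcrh, which overlap genes on the opposite strand, are uncertain.

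**Figure D5:**
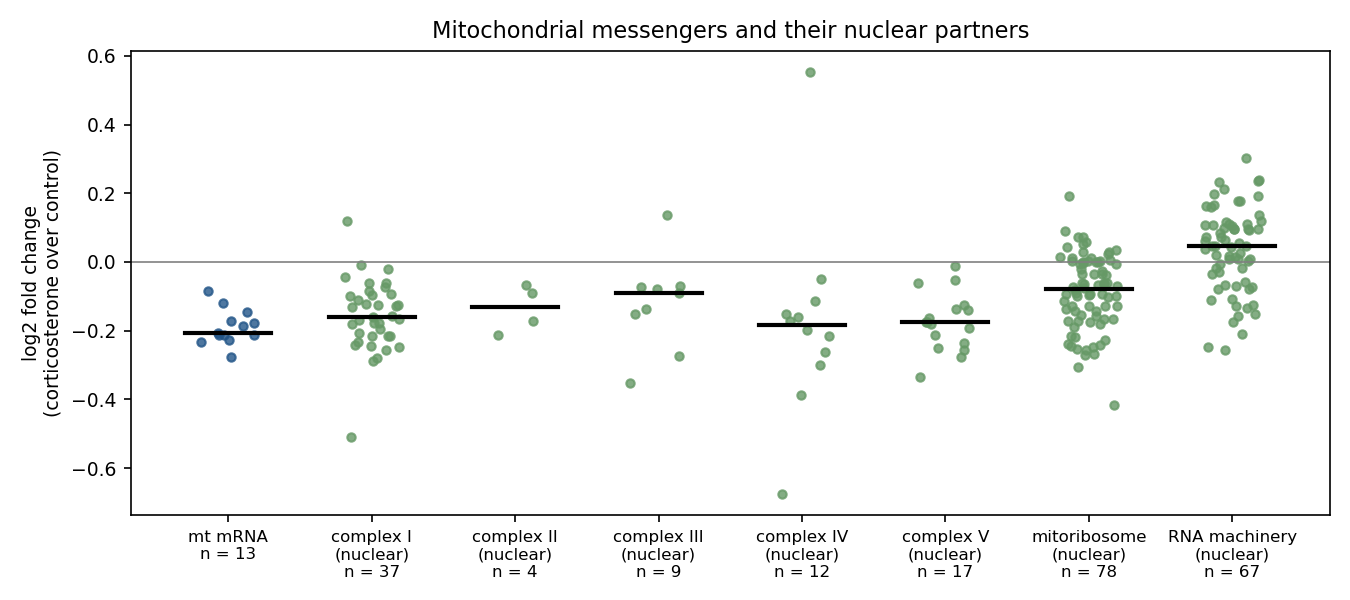
Fitted log2 fold change of corticosterone over control (vertical axis) for the mitochondrial messengers and for the tested nuclear genes of each respiratory complex, of the mitochondrial ribosome and of the mitochondrial RNA machinery. Each dot is 1 gene and the bar is the median of the group, -0.21 for the messengers, -0.16 for complex I, -0.08 for the ribosome and 0.05 for the RNA machinery.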

How the data were processed

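Total RNA of 6 libraries of 4T1 cells was sequenced by the authors (a column kit and TRIzol are both named for extraction, per the labels' protocols), and libraries were grouped by their treatment label. The deposited counts are, per the file headers, whole numbers per gene and library without normalization. The deposited FPKM were, per the file headers, scaled by the authors to transcript length and depth. Aligner, counter, RNA selection and strandedness: not given in the sources used here. GRCh38 is the build in the labels, yet all 37 mitochondrial rows carry coordinates of GENCODE M21 (mouse, GRCm38). Of the value columns, 0 were left unmapped.

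The members and lists were chosen with earlier results of these data known. The filter was filterByExpr (count of at least 10, total of at least 15), the scaling TMM, and edgeR 4.0.16 (R 4.3.3) fitted group over all genes with its quasi-likelihood test and Benjamini-Hochberg adjustment. The words changed, rose and fell mean an adjusted p under 0.05. The SE is the log2 fold change over the square root of F. CPM are TMM-scaled. Shares and ratios per library were compared by exact permutation. Nuclear copies were sought with BLAST+ 2.17.0 (identity at least 90%, 100 bases) among transcripts of genes in the table. All mitochondrial genes are named, with the 5 members of lowest p of each nuclear list and called ones. Libraries of equal number deviated from their group means with Pearson r of 0.094, 0.060 and -0.22 and were not treated as pairs. Alternatives were DESeq2 1.42.0, limma 3.58.1 on log2(FPKM + 1) and on log2(FPKM + 0.1), other scalings, filters and thresholds, a replicate block and leaving out each library. Simulated data with known changes were run through the same code. At 62175495 to 66249288 counts per library, counting error is small beside replicate spread for messengers, and rows of transfer RNAs with under 100 counts are the least precise.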

Additional observations from a re-analysis of the deposited data

How the results depend on the processing

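All 13 messengers kept a negative log2 fold change under every alternative run, and mt-Tr, mt-Th, mt-Ts2 and mt-Tl2 a positive one (1.08 to 2.01, adjusted p of 0.00136 to 0.301). The number of called mitochondrial transcripts went from 0 to 7 in DESeq2 (3 messengers, 4 transfer RNAs) and to 4 at an adjusted p under 0.1 (4 transfer RNAs). With 1 library left out it ranged from 0 to 17, with 0 to 12 messengers and 0 to 5 transfer RNAs, the most without corticosterone replicate 2. Without corticosterone replicate 1 it was 4, all transfer RNAs. The list of RNA machinery ranged from 0 to 12 called in these fits, that of ribosomal proteins from 0 to 18 and that of respiratory subunits from 0 to 55. The highest number of each came without corticosterone replicate 2, where 20.5% of all tested genes were called. The ribosomal proteins called were 3 in DESeq2, against 8.1% of all tested genes, and 2 with limma on log2(FPKM + 1), against 4.26%. There were 2 with a mean FPKM of at least 5, 2 with a pseudocount of 0.1 and 3 at an adjusted p under 0.1. For these settings the share of all genes called in either direction is not given here. The respiratory subunits called, 1 in the main setting (against 2.82% of all tested genes), were 5 in DESeq2 (against 8.1%). There were 0 with no low-count filter, at an adjusted p under 0.01 and with the replicate block. The replicate block called 0 mitochondrial transcripts, and since same-number libraries share only a number, it is not a paired design. The difference in transfer RNA share turned from -0.00023 to 0.0084 percentage points when FPKM were summed; the cause was not tested. The nuclear copies on chromosome 1 were treated as alternatives after seeing the data.

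With 1 library left out, log2 fold changes that changed sign ranged from -0.18 to 0.20 for mt-Tf, -0.11 to 0.073 for mt-Rnr1 (-0.0027 with the replicate block), -0.028 to 0.075 for mt-Rnr2, -0.11 to 0.27 for mt-Tq, -0.10 to 0.30 for mt-Tm, -0.28 to 0.13 for mt-Tw, -0.076 to 0.30 for mt-Ta, -0.036 to 0.25 for mt-Ty, -0.025 to 0.63 for mt-Tk and -0.27 to 0.063 for mt-Tt. These 10 had not passed.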
